A study of Mus musculus with 11 samples.

Results

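The comparison set 4 livers of mice kept on western diet with alcohol and given serial saline injections (saline livers) against 3 livers of mice kept on chow. All 7 libraries were taken by their labels, out of 11 in the series; the other 4 come from mice on the same diet given diphtheria toxin (DT). Every group, chow included, consisted of male mice with the Clec4f-DTR genotype, in which the DT receptor is expressed from the locus or promoter of Clec4f, a gene of the resident liver macrophages called Kupffer cells. Mice were 8 weeks old when the diets began and stayed on them for 16 weeks. The chow titles name no injections, so serial injection and diet cannot be told apart, and neither can western diet and alcohol, since no group of these 7 had only 1 of them. The labels name whole liver tissue and poly(A) RNA, whereas their extraction text describes CD45-positive cells for single-cell work. Alb, the albumin gene of hepatocytes, was at 55833, 62422 and 72797 CPM (chow 1 to 3) and 49169.7, 65555, 58936 and 53767 CPM (saline 1 to 4) (log2 FC -0.16, SE 0.14, adjusted p = 0.45), so the libraries were read as whole liver. Nothing beyond a replicate number says that the samples of a group came from separate animals, and p-values measure the spread between these samples.

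The liver stores, makes and exports lipid. SREBP-1c and the sterol sensor LXR drive genes of fatty acid synthesis and desaturation, SREBP-2 drives genes of sterol synthesis and is restrained when sterol is plentiful, PPAR-alpha drives fatty acid oxidation, and PPAR-gamma is associated with lipid droplet genes in fatty liver. Ethanol is oxidised by alcohol dehydrogenase, Cyp2e1 and catalase, and the acetaldehyde formed by aldehyde dehydrogenases. Interferon-stimulated genes, antigen presentation and matrix genes are often followed as signs of inflammation and scarring. In bulk RNA, fewer cells of a type and less RNA per cell cannot be told apart, here and in every result on a cell type below.

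Libraries held 43995217 to 57298150 counts, and 3 counts correspond to 0.050 to 0.0697 CPM. Mitochondrial transcripts made up 6.32 to 7.53% of counts. Per library, 77.9 to 80.8% of low counts were even numbers, and whether the 2 mates of a read pair were counted singly is not stated. In a principal component analysis of 500 genes with the highest variance, component 1 (65.8%) separated chow from saline livers. Component 2 (10.3%) had chow liver 3 at one end. Pairs of livers within a group correlated at 0.980 to 0.987 (log2 CPM across genes), and the highest value between groups was 0.971. Clec4f was at 42.8, 45.3 and 33.6 CPM (chow 1 to 3) and 42.3, 44.9, 39.3 and 41 CPM (saline 1 to 4) (log2 FC 0.04, SE 0.10, adjusted p = 0.802), so the gene whose promoter carries the receptor was not called.

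Of 15435 genes tested, 3105 were called, that is, had a Benjamini-Hochberg adjusted p below 0.05 in edgeR's quasi-likelihood test, and 5336 had an unadjusted p below 0.05. This is 20.1% of the genes tested. Called higher in saline livers were 1660 genes (10.8%) and lower were 1445 (9.36%). Among all called genes 874 differed by at least 1 log2 unit, 500 higher and 374 lower. Without regard to any test, CPM did not overlap between groups for 16.7% of genes with saline livers above and 15.7% with saline livers below. Of the 3105 called genes the groups overlapped for 60, so a lack of overlap adds little to a call, here and below. Values are CPM, that is, counts scaled to library size with TMM factors. Where values are set against each other, those of chow livers 1 to 3 come first and those of saline livers 1 to 4 second, in that order. The log2 FC is the fitted log2 fold change of saline minus chow, and "rose" or "fell" is used of called genes only. The median log2 FC of all genes tested was 0.01. With the DT livers included in the fit, 950 genes were called, of which 935 were among the 3105. Scaling by total counts instead of TMM factors moved the median log2 FC of all genes to 0.12 and the share of called genes that were higher from 53.5 to 73.9%. Where a call was lost without 1 liver, the number of the 7 such refits that kept it is given with the highest adjusted p and the liver left out there.

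**Figure D1:**
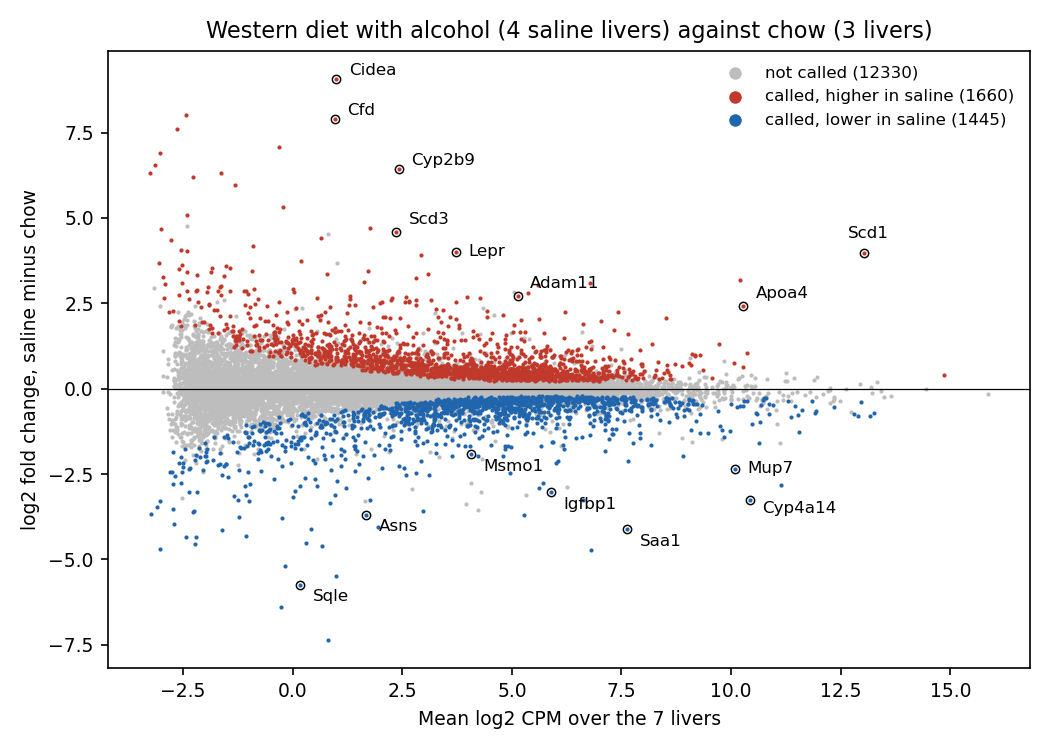
Each point is 1 of the 15435 genes, with the mean log2 CPM over the 7 livers on the x axis and the log2 fold change of saline minus chow on the y axis; red and blue points were called higher (1660) and lower (1445), grey points were not called, and ringed genes are named. Scd1 stands alone at the upper right, at a high level and a log2 fold change of 3.98, while Sqle is among the lowest points.

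Across the 49 gene lists examined, 727 of 770 genes were tested, of which 143 rose, 120 fell and 464 were not called. Lists with the largest share of members called higher were those of MHC class II presentation, interferon-stimulated genes, annexins and galectins, and fatty acid synthesis. Those with the largest share called lower were cholesterol synthesis, sex-biased genes of male liver, acute-phase proteins, and complement and coagulation. Lists in which few members were called in either direction included endothelial, B cell and mitochondrial transcripts.

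**Figure D2:**
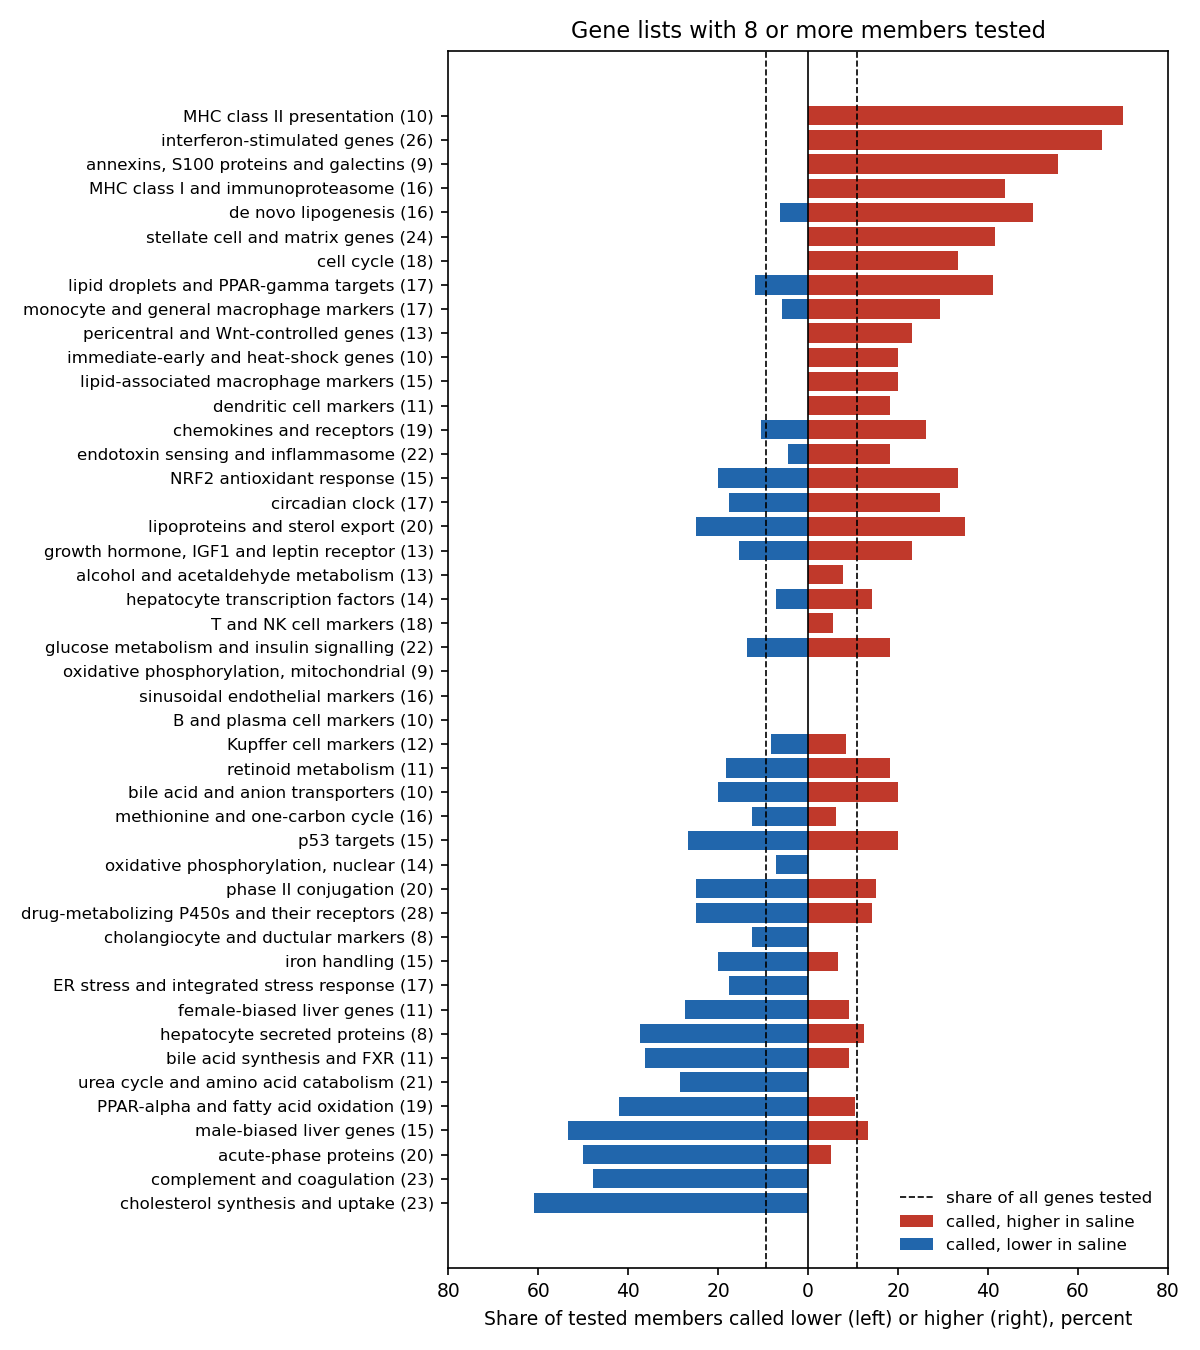
Bars give, for each gene list with 8 or more members tested (number in brackets), the share of those members called higher (right, red) or lower (left, blue) in saline than in chow livers, in percent, and dashed lines give the same shares for all genes tested (10.8 and 9.36). MHC class II genes reach 7 of 10 on the right, and cholesterol synthesis genes 14 of 23 on the left.

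Genes of fatty acid synthesis and desaturation were among the strongest rises. Scd1, the stearoyl-CoA desaturase that makes oleate and palmitoleate, was at 1698, 2184 and 1383 CPM (chow 1 to 3) and 24470.3, 34014, 28529.9 and 23979.6 CPM (saline 1 to 4). Every saline liver was above every chow liver (log2 FC 3.98, SE 0.21, adjusted p = 5.88e-06). Its relatives rose too (Scd2 (2.09, adjusted p = 0.000226), Scd3 (4.59, adjusted p = 8.06e-07) and Scd4 (4.41, adjusted p = 5.88e-06)). Scd2 was at 5.74, 4.11 and 3.32 against 17.3, 18.6, 22.7 and 16 CPM. Scd3 was at 0.906, 0.627 and 0.941 against 18.4, 21.9, 18.1 and 20.7 CPM. Scd4 was low in chow livers, at 0.256, 0.24 and 0.272 against 5.92, 5.71, 4.49 and 5.79 CPM. These 4 genes are close copies, and reads can be split between them in ways the counts do not show. Srebf1, which encodes SREBP-1, was at 37.5, 29.7 and 32.6 CPM (chow 1 to 3) and 175, 373, 371 and 221 CPM (saline 1 to 4) (log2 FC 3.10, SE 0.32, adjusted p = 0.00155), with saline livers 2 and 3 the highest. Of the 16 genes of this list, which holds Scd1 and Scd2 but not Scd3 and Scd4, 8 rose and 1 fell, with a median log2 FC of 0.68. The others that rose were Elovl6 (2.25), Acaca (1.49), Acly (0.58), Fads2 (0.54) and Thrsp (2.80), that is, a fatty acid elongase, acetyl-CoA carboxylase 1, ATP citrate lyase, the delta-6 desaturase and a lipogenic nuclear protein. Acacb, the acetyl-CoA carboxylase of the mitochondrial surface, whose product restrains fatty acid import, fell (log2 FC -0.68, SE 0.20, adjusted p = 0.0447). Fasn, fatty acid synthase, was not called, at 111, 108 and 153 CPM (chow 1 to 3) and 214, 239, 545 and 113 CPM (saline 1 to 4) (log2 FC 1.16, SE 0.55, adjusted p = 0.204): saline liver 4 lay among the chow livers and saline liver 3 far above the rest. Mlxipl, which encodes the carbohydrate sensor ChREBP, and Elovl5 and Fads1 were not called either (Mlxipl (0.12), Elovl5 (0.26) and Fads1 (-0.13)). Fads2, Thrsp and Acacb kept their calls in 3, 1 and 2 of the 7 refits (adjusted p = 0.076 without chow liver 3, 0.115 without chow liver 2 and 0.139 without chow liver 1). Among the 16 lipogenic genes, 6 rose and 0 fell with the DT livers in the fit, and 6 to 8 rose and 0 to 1 fell when 1 liver was left out.

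Lipid droplet genes and targets of PPAR-gamma moved in both directions. Cidea, a droplet fusion protein best known from brown fat, had 2 counts in each chow library and 5099 counts over the saline livers, at 0.0465, 0.0369 and 0.0418 against 29.5, 29.2, 11.7 and 24 CPM. The ratio of CPM was 562 (95% interval 258 to 1533, counting error only), and the call had an adjusted p of 0.000177. Here and below, such intervals treat each count as independent. Low counts were mostly even, and if both mates of a read pair were counted, the intervals are too narrow even for counting error. Mogat1, a monoacylglycerol acyltransferase, rose from 36 counts over the chow livers to 739, a ratio of 13.6 (9.72 to 19.6). Pparg, the receptor itself, was at 5.34, 3.91 and 5.25 CPM (chow 1 to 3) and 17, 17.2, 21.5 and 18.6 CPM (saline 1 to 4) (log2 FC 1.94, SE 0.14, adjusted p = 4.1e-05). Its target Cd36, a fatty acid transporter, was at 52.4, 42.8 and 45.5 against 174, 194, 187 and 137 CPM (log2 FC 1.88, SE 0.13, adjusted p = 3.56e-05). The ranges of the groups did not meet for either gene. Cidec, which packs large droplets, Fitm1, which helps droplets form, and Dgat2, which completes triglyceride, also rose (Cidec (1.45), Fitm1 (1.22) and Dgat2 (0.55)). Pnpla2, the main triglyceride lipase, and Plin5, which ties droplets to mitochondria, fell (Pnpla2 (-0.86) and Plin5 (-1.44)). Plin2, the most common droplet coat of hepatocytes, was not called, at 814, 844 and 652 against 479.6, 554, 614 and 723 CPM, and neither was Plin4 (Plin2 (-0.38) and Plin4 (1.49)). In all, 7 of 17 members rose and 2 fell (median 0.47). Dgat2 kept its call in 2 of the 7 refits (adjusted p = 0.119 without chow liver 1). Among the 17 droplet genes, 5 rose and 2 fell with the DT livers in the fit, and 6 to 8 rose and 2 to 5 fell when 1 liver was left out.

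Cholesterol synthesis was the list with most members lower: 14 of 23 fell, 9 were not called, and the median log2 FC was -0.92. Sqle, squalene monooxygenase, was at 13.8, 10.8 and 9.16 CPM (chow 1 to 3) and 0.185, 0.186, 0.40 and 0.0389 CPM (saline 1 to 4) (log2 FC -5.74, SE 0.41, adjusted p = 0.000122). The highest saline liver was far under the lowest chow liver. Msmo1, a methylsterol oxidase, was at 38, 32.5 and 36.9 against 9.69, 9.0, 9.88 and 9.13 CPM (log2 FC -1.92, SE 0.09, adjusted p = 3.58e-06). Idi1, which isomerises isopentenyl diphosphate, was at 6.5, 6.28 and 5.62 against 0.444, 1.34, 1.27 and 0.661 CPM. Cyp51, lanosterol demethylase, was at 51.9, 41.6 and 31.5 against 8.36, 8.48, 14.8 and 10.5 CPM. Each was lower in every saline than in every chow liver (Idi1 (-2.72) and Cyp51 (-1.98)). Further falls ran along the pathway from mevalonate onward, Mvk (-0.98), Pmvk (-0.66), Fdps (-1.64), Fdft1 (-0.31), Lss (-0.86), Nsdhl (-1.40), Hsd17b7 (-1.33), Tm7sf2 (-1.05) and Dhcr7 (-0.92), and included Srebf2, which encodes SREBP-2 (-0.99). Hmgcs1, the synthase of the early pathway, and Insig1, a sterol-regulated brake on SREBP, were not called (Hmgcs1 (-0.62) and Insig1 (-0.38)). In saline livers 1 and 4 Insig1 was at 40.7 and 34.7 CPM and in livers 2 and 3 at 70.2 and 81 CPM, against 68.2, 69.4 and 83 CPM in chow. A sterol response element spelled TCACNCCAC, searched on both strands of the 250 bases before the start, was in 1 of 15 list genes with a RefSeq promoter, Hmgcs1, and in 1.22% of all genes. Fdft1 and Fdps kept their calls in 2 and 2 of the 7 refits (adjusted p = 0.131 without chow liver 1 and 0.104 without chow liver 1). Among the 23 sterol genes, 0 rose and 11 fell with the DT livers in the fit, and 0 to 1 rose and 12 to 14 fell when 1 liver was left out.

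Genes of sterol export and lipoproteins rose and fell. Abcg5 and Abcg8 are partner transporters that send sterol into bile. Abcg5 was at 73.4, 77.4 and 62.6 against 408, 297, 270.0 and 374 CPM, and Abcg8 was at 114, 104 and 104 against 408, 304, 267 and 333 CPM. Abca1, which loads apolipoprotein A-I with cholesterol, was at 149, 158 and 158 against 360.4, 321, 310.2 and 379 CPM. These 3 targets of LXR rose without overlap between groups (Abcg5 (2.24, adjusted p = 4.59e-05), Abcg8 (1.61, adjusted p = 9.24e-05) and Abca1 (1.14, adjusted p = 7.13e-05)), as did Abcg1 (Abcg1 (0.93)). Abcg5 and Abcg8 overlap on opposite strands, so their reads may be shared. Nr1h3, the gene of LXR-alpha, was at 87.4, 82.2 and 91.2 against 83.2, 87.8, 87.8 and 89.2 CPM and was not called (log2 FC 0.00, SE 0.07, adjusted p = 0.991). Apoa4, an apolipoprotein of triglyceride-rich particles, was at 535, 455 and 453 CPM (chow 1 to 3) and 3204, 2228, 2123 and 2676 CPM (saline 1 to 4) (log2 FC 2.41, SE 0.16, adjusted p = 2.99e-05). Lpl, lipoprotein lipase, and Apoe rose (Lpl (2.00) and Apoe (0.41)). Apoa1, the main protein of HDL, fell, at 12388, 12541 and 12960.1 against 7640.0, 6478, 7142 and 7994 CPM (log2 FC -0.79, SE 0.11, adjusted p = 0.00122), together with Lcat, which esterifies HDL cholesterol (Lcat (-0.57)). Apoc2, the activator of lipoprotein lipase, its inhibitor Angptl4, and Mttp, which loads VLDL, fell as well (Apoc2 (-2.18), Angptl4 (-1.33) and Mttp (-0.28)). Apob and Apoc3 were not called (Apob (0.20) and Apoc3 (-0.11)). Of 20 members 7 rose and 5 fell. Angptl4, Apoe and Mttp kept their calls in 3, 3 and 1 of the 7 refits (adjusted p = 0.0763 without chow liver 2, 0.119 without chow liver 1 and 0.149 without chow liver 1). Among the 20 lipoprotein genes, 5 rose and 2 fell with the DT livers in the fit, and 6 to 9 rose and 3 to 5 fell when 1 liver was left out.

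**Figure D3:**
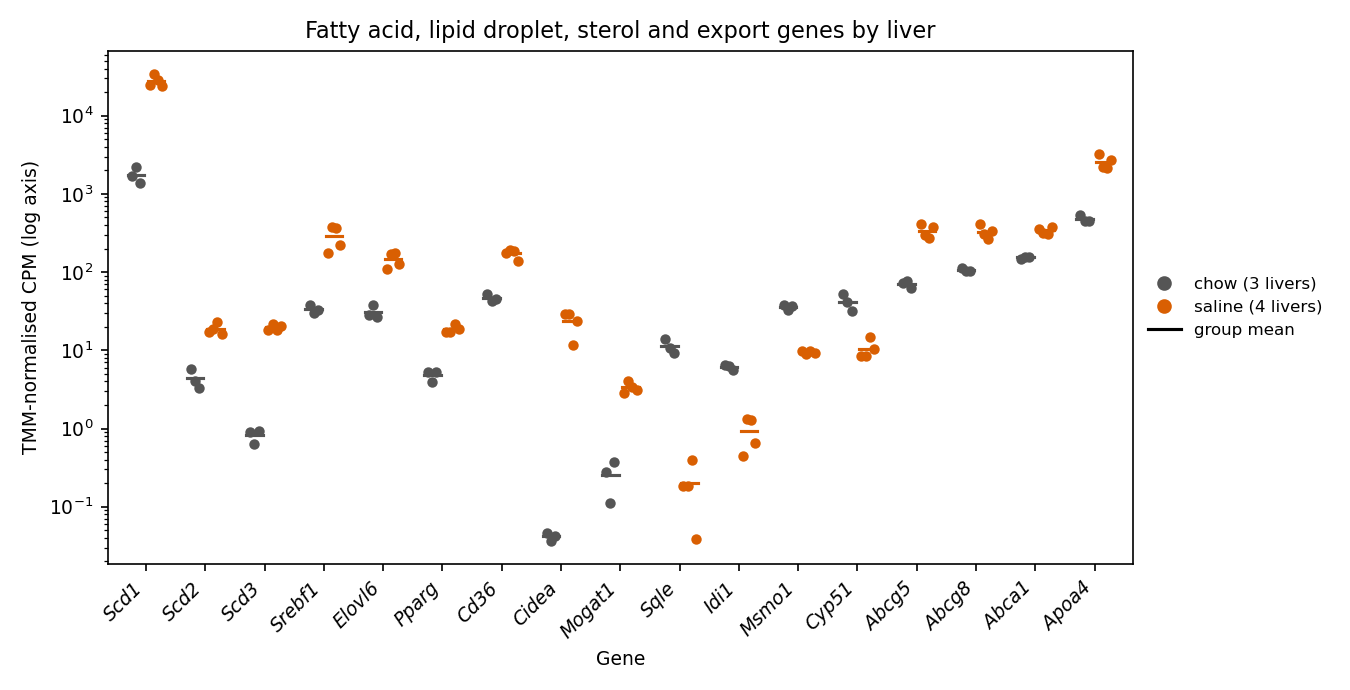
CPM on a log axis of genes of fatty acid synthesis, lipid droplets, sterol synthesis and sterol export, with 1 point for each chow (3) and saline (4) liver and a bar at each group's mean; levels compare only within a gene. Scd1 and Cidea lie far higher in saline livers and Sqle far lower, with no overlap between groups.

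Of the bile acid genes, those of the alternative pathway fell and the classic pathway showed wide spread between saline livers. Cyp27a1, sterol 27-hydroxylase, was at 578, 520.3 and 593 CPM (chow 1 to 3) and 321, 263, 285 and 278 CPM (saline 1 to 4) (log2 FC -0.98, SE 0.09, adjusted p = 0.000187), with no overlap. Cyp7b1, the next hydroxylase of that pathway, Hsd3b7 and Baat, which conjugates bile acids, fell, and Cyp2c70, which makes the muricholic acids of mice, rose (Cyp7b1 (-1.22), Hsd3b7 (-0.96), Baat (-0.41) and Cyp2c70 (1.38)). Cyp7a1, the rate-limiting enzyme of bile acid synthesis, was at 65.7, 89.9 and 85.5 CPM (chow 1 to 3) and 349.8, 83.6, 59.3 and 268 CPM (saline 1 to 4) and was not called (log2 FC 1.24, SE 0.71, adjusted p = 0.286). Cyp8b1, which makes cholic acid, was not called either, at 1078, 881 and 1039.8 against 658, 189, 72 and 559 CPM (log2 FC -1.44, SE 0.76, adjusted p = 0.253). Saline livers 1 and 4 were above livers 2 and 3 for both genes. Among transporters the uptake carriers Slco1b2 and Slco1a1 rose, Slco1a4 and the phospholipid floppase Abcb4 fell, and Abcb11, the bile salt export pump, and Slc10a1, the sodium-coupled uptake carrier, were not called (Slco1b2 (0.76), Slco1a1 (0.80), Slco1a4 (-1.25), Abcb4 (-0.44), Abcb11 (0.27) and Slc10a1 (0.14)). The counts were 1 higher and 4 lower of 11 bile acid genes, and 2 higher and 2 lower of 10 transporters. Cyp7b1, Cyp2c70 and Slco1a4 kept their calls in 2, 2 and 3 of the 7 refits (adjusted p = 0.117 without chow liver 1, 0.115 without chow liver 2 and 0.0853 without chow liver 3). Abcb4 kept its call in 4 of the 7 refits (adjusted p = 0.093 without chow liver 1). Among the 10 transporters, edgeR called 0 with the DT livers in the fit, where 2 had an unadjusted p below 0.05, and 2 rose and 0 to 2 fell when 1 liver was left out. Among the 11 bile acid genes, 0 rose and 2 fell with the DT livers in the fit, and 0 to 1 rose and 3 to 5 fell when 1 liver was left out.

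Targets of PPAR-alpha and genes of fatty acid oxidation were lower in the main, with 8 of 19 lower, 2 higher and a median of -0.44. Cyp4a14, a fatty acid omega-hydroxylase, was at 4708, 5632 and 5959.9 CPM (chow 1 to 3) and 642, 525, 189 and 905 CPM (saline 1 to 4) (log2 FC -3.26, SE 0.51, adjusted p = 0.00852). Ehhadh, an enzyme of peroxisomal oxidation, was at 1553, 1585 and 1239 against 752, 549.7, 399 and 834 CPM. It was lower in every saline than in every chow liver (log2 FC -1.20, SE 0.24, adjusted p = 0.0125). Further falls were those of Acadvl, Hadha and the carnitine carrier Slc25a20, together with the coactivator Ppargc1a and the kinase Pdk4, which spares glucose (Acadvl (-0.48), Hadha (-0.44), Slc25a20 (-0.44), Ppargc1a (-0.75) and Pdk4 (-2.13)). Ppara, the gene of the receptor, rose, at 142, 132 and 145 against 223, 240.5, 214 and 271 CPM (log2 FC 0.77, SE 0.10, adjusted p = 0.000866), and so did Vnn1, a pantetheinase (0.89). Cpt1a, the entry step of mitochondrial oxidation, and the hormone Fgf21 were not called (Cpt1a (-0.32) and Fgf21 (0.49)). Cyp4a10 was at 4142, 4916 and 4876 against 1999.7, 920.3, 557 and 2673 CPM and was not called (log2 FC -1.60, SE 0.54, adjusted p = 0.0943), with saline livers 2 and 3 the lowest. Pdk4 kept its call in 1 of the 7 refits (adjusted p = 0.0988 without saline liver 3). Among the 19 oxidation genes, 2 rose and 3 fell with the DT livers in the fit, and 2 to 3 rose and 7 to 11 fell when 1 liver was left out.

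Of 13 genes of ethanol and acetaldehyde oxidation, 1 was called. Cyp2e1, the ethanol-inducible P450, was at 11166, 10146 and 12875 CPM (chow 1 to 3) and 11266, 10422, 9374 and 12064 CPM (saline 1 to 4) (log2 FC -0.08, SE 0.13, adjusted p = 0.698). Adh1, the main alcohol dehydrogenase, was at 1198, 1377 and 1063 against 1204, 1812, 1697 and 1665 CPM (log2 FC 0.39, SE 0.15, adjusted p = 0.0856). Aldh2, the mitochondrial acetaldehyde dehydrogenase, was at 2142, 2114 and 2346 against 2528, 2603, 2537 and 2541 CPM (log2 FC 0.21, SE 0.09, adjusted p = 0.117). None of these 3 was called, nor was catalase (Cat (-0.18)). Aldh3a2, which oxidises fatty aldehydes, rose, at 395, 408 and 468 against 748, 834, 881 and 868 CPM (log2 FC 0.98, SE 0.10, adjusted p = 0.000257). DESeq2 called 4 of the 13 genes higher and 1 lower. Among the 13 ethanol genes, 1 rose with the DT livers in the fit, and 1 to 3 rose when 1 liver was left out.

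The P450s of drug and steroid metabolism showed 1 of the largest rises and several moderate falls. Cyp2b9, a P450 of female mouse liver, was at 0.418, 0.424 and 0.606 CPM (chow 1 to 3) and 32, 98.6, 12.2 and 24.7 CPM (saline 1 to 4) (log2 FC 6.43, SE 1.08, adjusted p = 0.0144), with saline liver 2 far above the others. Cyp2c29, Cyp2d40 and Cyp2c55 also rose (Cyp2c29 (1.31), Cyp2d40 (1.14) and Cyp2c55 (1.39)). Lower were Cyp3a11, a main P450 of drug oxidation, at 6961, 6394 and 6128 against 5149, 4329.9, 3950.2 and 4388 CPM, and Cyp3a25 (-0.75), Cyp3a13 (-0.34), Cyp2c54 (-0.54) and Cyp2f2 (-0.53), with a log2 FC of -0.54 for Cyp3a11. The receptor genes Nr1i2 (PXR) and Nr1i3 (CAR) fell (Nr1i2 (-0.62, adjusted p = 0.00243) and Nr1i3 (-0.58, adjusted p = 0.0034)), and Ahr, Cyp1a2 and Cyp2b10 were not called (Ahr (-0.07), Cyp1a2 (0.05) and Cyp2b10 (-1.91)). Of 28 members 4 rose and 7 fell. Cyp2b, Cyp2c and Cyp3a genes are near-identical within a family, so their split is uncertain. Cyp2b9, Cyp2c55 and Cyp3a13 kept their calls in 4, 2 and 3 of the 7 refits (adjusted p = 0.0624 without chow liver 2, 0.0989 without chow liver 2 and 0.0743 without chow liver 2). Cyp3a11, Cyp2c54 and Cyp2f2 kept their calls in 6, 6 and 5 of the 7 refits (adjusted p = 0.0511 without chow liver 1, 0.0534 without chow liver 1 and 0.1 without chow liver 2). Among the 28 P450 and receptor genes, 1 rose and 1 fell with the DT livers in the fit, and 2 to 4 rose and 3 to 9 fell when 1 liver was left out.

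Conjugating and antioxidant enzymes were split. Gstp1, a glutathione transferase, was at 1029.6, 1067 and 1029.5 CPM (chow 1 to 3) and 365, 377, 436 and 533 CPM (saline 1 to 4) (log2 FC -1.29, SE 0.13, adjusted p = 0.00023). Gstt1 and the low-level Gsta1 rose (Gstt1 (0.63) and Gsta1 (2.38)), while Sult5a1 (-1.53), Ugt2b5 (-0.61), Sult1a1 (-0.44) and Gsta2 (-1.11) fell, for 3 higher and 5 lower of 20. Among 15 genes of the NRF2 response 5 rose: Nfe2l2, which encodes NRF2, the pentose phosphate enzymes G6pdx, Pgd and Tkt, and the cystine carrier Slc7a11 (Nfe2l2 (0.47), G6pdx (0.72), Pgd (0.71), Tkt (0.55) and Slc7a11 (3.50)). Slc7a11 had 4 counts over the chow and 76 over the saline livers, a ratio of 12.6 (95% interval 4.71 to 47.3, counting error only). Ephx1, Cbr1 and Gsr fell (Ephx1 (-0.57), Cbr1 (-0.72) and Gsr (-0.27)). Nqo1, Hmox1, Gclm and Txnrd1, well-known targets of NRF2, were not called (Nqo1 (-0.12), Hmox1 (0.74), Gclm (0.04) and Txnrd1 (0.10)). Gsta2, Slc7a11 and Pgd kept their calls in 2, 3 and 2 of the 7 refits (adjusted p = 0.0944 without chow liver 3, 0.0616 without chow liver 2 and 0.11 without chow liver 3). Gsr, Sult1a1 and Nfe2l2 kept their calls in 0, 4 and 4 of the 7 refits (adjusted p = 0.146 without chow liver 1, 0.0663 without chow liver 2 and 0.0817 without chow liver 2). Among the 20 conjugation genes, 1 rose and 1 fell with the DT livers in the fit, and 3 to 4 rose and 3 to 6 fell when 1 liver was left out. Among the 15 NRF2 genes, 0 rose and 1 fell with the DT livers in the fit, and 2 to 6 rose and 2 fell when 1 liver was left out.

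Liver genes of male mice, kept high by pulsed growth hormone, were mostly lower. Mup1, a major urinary protein, was at 464, 343 and 466 CPM (chow 1 to 3) and 21.5, 18.4, 28.8 and 108 CPM (saline 1 to 4) (log2 FC -3.26, SE 0.74, adjusted p = 0.035), and saline liver 4 was the highest of its group. Mup7, Mup11 and Mup21 of the list fell too, and so did Mup12, which is outside it (Mup7 (-2.35, adjusted p = 0.0314), Mup11 (-2.12, adjusted p = 0.00988), Mup21 (-0.92, adjusted p = 0.037) and Mup12 (-2.92, adjusted p = 0.0311)), whereas Mup20 was at 3416, 4653 and 2110.3 against 1598, 999, 2619.7 and 1413 CPM and was not called (-1.03). Mup genes share long stretches of sequence, and counts can be divided among them arbitrarily. Elovl3, an elongase of very long fatty acids, was at 302, 272 and 235 against 113, 108, 98.3 and 70.1 CPM (log2 FC -1.47, SE 0.16, adjusted p = 0.00065). Selenbp2, a selenium-binding protein, was at 286, 199 and 91.8 against 14.1, 4.24, 16.8 and 24.2 CPM (log2 FC -3.70, SE 0.69, adjusted p = 0.0198). Serpina1e, an alpha-1-antitrypsin gene outside the list, was at 7711, 6617 and 7909 against 1028, 429, 916 and 1849.8 CPM (log2 FC -2.81, SE 0.46, adjusted p = 0.00988). The complement gene C6 and Cyp7b1 fell (C6 (-0.56) and Cyp7b1 (-1.22)), and Slco1a1 and Cyp2u1 of the same list rose (Slco1a1 (0.80) and Cyp2u1 (0.55)). Hsd3b5, a steroid enzyme of adult male liver, was at 16.7, 12.5 and 5.23 CPM (chow 1 to 3) and 19.7, 56.3, 57.9 and 68.4 CPM (saline 1 to 4) and was not called (log2 FC 2.14, SE 0.60, adjusted p = 0.0589). In total 8 of 15 fell and 2 rose (median -0.92). Of 11 genes of female liver, Cyp2b9 rose and Cux2, a transcription factor, Cyp17a1, a steroid hydroxylase, and Fmo2 fell (Cux2 (-4.60), Cyp17a1 (-2.51) and Fmo2 (-0.86)). Mup1, Mup7 and Mup12 kept their calls in 1, 1 and 1 of the 7 refits (adjusted p = 0.091 without chow liver 1, 0.0869 without chow liver 1 and 0.0799 without chow liver 3). Mup21, Selenbp2 and C6 kept their calls in 2, 3 and 2 of the 7 refits (adjusted p = 0.112 without chow liver 3, 0.0584 without saline liver 1 and 0.154 without chow liver 1). Cyp7b1, Cyp2b9 and Fmo2 kept their calls in 2, 4 and 4 of the 7 refits (adjusted p = 0.117 without chow liver 1, 0.0624 without chow liver 2 and 0.0772 without chow liver 2). Among the 11 female-biased genes, 1 rose and 1 fell with the DT livers in the fit, and 0 to 2 rose and 2 to 4 fell when 1 liver was left out. Among the 15 male-biased genes, 0 rose and 1 fell with the DT livers in the fit, and 2 to 3 rose and 2 to 8 fell when 1 liver was left out.

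Genes of growth hormone, insulin-like growth factor and leptin signalling were mixed. Lepr, the leptin receptor, was at 3.04, 4.13 and 2.34 CPM (chow 1 to 3) and 62.5, 24.4, 13.8 and 104 CPM (saline 1 to 4) (log2 FC 4.01, SE 0.89, adjusted p = 0.0329). The groups did not overlap, and saline livers 1 and 4 were above livers 2 and 3. Ghr, the growth hormone receptor, rose, at 291, 309.6 and 351 against 454, 564, 509 and 551 CPM (log2 FC 0.71, SE 0.11, adjusted p = 0.00181), as did Igfbp3 (Igfbp3 (1.36)). Igfbp1, an IGF-binding protein repressed by insulin, was at 109, 309.9 and 200.3 against 24.8, 25.4, 27.4 and 22.8 CPM (log2 FC -3.04, SE 0.34, adjusted p = 0.00247), and Igfbp2 fell (Igfbp2 (-1.11)). Igf1, Stat5b and Socs2 were not called (Igf1 (-0.17), Stat5b (-0.26) and Socs2 (-1.25)). For Socs2, a feedback inhibitor of growth hormone signalling, chow liver 3 was at 2.99 CPM and chow livers 1 and 2 at 45.3 and 31.1 CPM. Lepr, Igfbp2 and Igfbp3 kept their calls in 3, 1 and 6 of the 7 refits (adjusted p = 0.107 without chow liver 1, 0.113 without chow liver 2 and 0.0526 without chow liver 1). Among the 13 growth hormone, IGF and leptin genes, 2 rose and 1 fell with the DT livers in the fit, and 1 to 3 rose and 1 to 3 fell when 1 liver was left out.

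Pck1 and G6pc, enzymes of glucose output, fell, and other genes of glucose metabolism moved in both directions. Pck1, which commits oxaloacetate to gluconeogenesis, was at 4039, 5545 and 5707 CPM (chow 1 to 3) and 2357, 1371, 1832 and 2836 CPM (saline 1 to 4) (log2 FC -1.28, SE 0.24, adjusted p = 0.00912). G6pc, glucose-6-phosphatase, was at 474, 606 and 643 against 199, 219.5, 90.4 and 221 CPM (log2 FC -1.66, SE 0.31, adjusted p = 0.0131). No saline liver reached the chow range for either gene. Pklr, pyruvate kinase of liver, Khk, which phosphorylates fructose, the glucose transporter Slc2a2 and the glycogen phosphorylase Pygl rose (Pklr (1.97), Khk (0.73), Slc2a2 (0.79) and Pygl (0.69)), and Pfkfb1 fell (-0.69). Of 22 genes of glucose metabolism 4 rose and 3 fell. Pklr and Khk kept their calls in 3 and 5 of the 7 refits (adjusted p = 0.0823 without chow liver 2 and 0.0632 without chow liver 1). Among the 22 glucose genes, 0 rose and 3 fell with the DT livers in the fit, and 2 to 4 rose and 3 fell when 1 liver was left out.

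Arg1, arginase of the urea cycle, was at 1812, 2204 and 2482 CPM (chow 1 to 3) and 1273, 1005, 884 and 1084 CPM (saline 1 to 4) (log2 FC -1.03, SE 0.14, adjusted p = 0.00134). Tdo2, which opens the ring of tryptophan, was at 1987, 2191 and 3093 against 1322, 1303, 1096 and 1185 CPM. Sds, serine dehydratase, was at 179, 254 and 332 against 129, 109, 83 and 126 CPM. Both fell without overlap (Tdo2 (-0.98, adjusted p = 0.00202) and Sds (-1.19, adjusted p = 0.0117)). Tat, tyrosine aminotransferase, Ass1 and Hal fell as well (Tat (-1.59), Ass1 (-0.83) and Hal (-0.95)), which makes 6 of 21 lower (median -0.31). Asl, the lyase of the urea cycle, was at 1539, 1809 and 1826 against 1013, 360.4, 265 and 833 CPM. Got1, aspartate aminotransferase, was at 684, 731 and 490.0 against 489.9, 133, 82.6 and 322 CPM. Cps1, which starts the cycle, was at 5537, 5896 and 6376 against 5895, 3346, 3053 and 5506 CPM. None of these 3 was called (Asl (-1.48), Got1 (-1.31) and Cps1 (-0.42)). In each of these saline livers 1 and 4 were above livers 2 and 3. Of the methionine cycle Ahcy fell and Mat2a rose (Ahcy (-0.75) and Mat2a (0.38)), and Mat1a, the methionine adenosyltransferase of adult liver, was at 9211, 9736 and 9198 against 8180.2, 4273, 3285 and 7458 CPM and was not called (log2 FC -0.69, SE 0.31, adjusted p = 0.155). Cth and Bhmt showed the same order of saline livers and were not called (Cth (-0.72) and Bhmt (-0.35)). Genes of the integrated stress response included 3 falls of 17, those of Asns, Sesn2 and Ppp1r15a (Asns (-3.69), Sesn2 (-1.32) and Ppp1r15a (-0.60)). The shares called of the stress response list (17.6%) and the methionine cycle list (18.8%) were near that of all genes tested (20.1%). Asns, asparagine synthetase, was at 17.3, 14.1 and 13.9 against 2.42, 0.595, 1.15 and 0.505 CPM. Sesn2, a nutrient-sensing sestrin, was at 24.4, 24.6 and 26.8 against 9.08, 10.5, 9.39 and 11.4 CPM. Atf4, Ddit3, Hspa5 and Trib3 were not called (Atf4 (-0.26), Ddit3 (0.22), Hspa5 (-0.14) and Trib3 (-0.24)). Tat, Ass1 and Hal kept their calls in 1, 3 and 3 of the 7 refits (adjusted p = 0.0961 without chow liver 2, 0.0761 without chow liver 2 and 0.126 without chow liver 2). Ppp1r15a and Mat2a kept their calls in 3 and 6 of the 7 refits (adjusted p = 0.0864 without chow liver 2 and 0.0672 without chow liver 1). Among the 21 urea cycle and amino acid genes, 4 fell with the DT livers in the fit, and 3 to 7 fell when 1 liver was left out. Among the 16 methionine cycle genes, 0 rose and 1 fell with the DT livers in the fit, and 0 to 1 rose and 2 to 3 fell when 1 liver was left out. Among the 17 stress response genes, 0 rose and 2 fell with the DT livers in the fit, and 0 to 2 rose and 2 to 3 fell when 1 liver was left out.

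Of 14 transcription factors of hepatocyte identity 2 rose and 1 fell, a share called (21.4%) near that of all genes tested (20.1%). Hnf4a fell, at 1147, 903 and 1198 against 661, 615, 783 and 699 CPM (log2 FC -0.65, SE 0.12, adjusted p = 0.0055). Cebpa rose, at 383, 319 and 379 against 574, 551, 585 and 588 CPM (log2 FC 0.67, SE 0.09, adjusted p = 0.00127). Nr5a2 rose as well (log2 FC 0.26, SE 0.08, adjusted p = 0.038). Onecut1 was not called, with saline liver 4 at 42.4 CPM above the other livers (log2 FC 2.21, SE 0.62, adjusted p = 0.0568). Among 13 pericentral genes, those around the central vein that depend on Wnt, Lect2, Nkd1 and Rnf43 rose (Lect2 (0.92), Nkd1 (0.79) and Rnf43 (1.08)), and Glul, Axin2 and Lgr5 were not called (Glul (0.09), Axin2 (0.24) and Lgr5 (0.46)). All 13 had a positive log2 FC (median 0.24), as had 51.1% of all genes tested, whose upper quartile was 0.29. The share of the 13 that was called (23.1%) was near that of all genes tested (20.1%). Of 11 retinoid genes, Lrat, which esterifies retinol in stellate cells, and Cyp26a1 rose, and the retinol carrier Rbp4 and Rdh11 fell (Lrat (0.93), Cyp26a1 (0.80), Rbp4 (-0.62) and Rdh11 (-0.41)). Nr5a2, Rnf43 and Cyp26a1 kept their calls in 2, 4 and 1 of the 7 refits (adjusted p = 0.125 without chow liver 1, 0.059 without saline liver 3 and 0.15 without chow liver 2). Rdh11 kept its call in 1 of the 7 refits (adjusted p = 0.134 without chow liver 1). Among the 14 hepatocyte factors, edgeR called 0 with the DT livers in the fit, where 4 had an unadjusted p below 0.05, and 1 to 3 rose and 1 fell when 1 liver was left out. Among the 13 pericentral genes, edgeR called 0 with the DT livers in the fit, where 3 had an unadjusted p below 0.05, and 2 to 5 rose when 1 liver was left out. Among the 11 retinoid genes, 1 rose and 0 fell with the DT livers in the fit, and 1 to 2 rose and 1 to 2 fell when 1 liver was left out.

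Proteins that hepatocytes secrete in the acute phase were lower in 10 of 20 cases and higher in 1 (median -0.74). Saa1, serum amyloid A, was at 1817, 2031 and 128 CPM (chow 1 to 3) and 93.7, 56.2, 114 and 42.3 CPM (saline 1 to 4) (log2 FC -4.11, SE 0.99, adjusted p = 0.0408). Saa2, with which it shares reads, was at 1403, 1571 and 57.4 against 49.1, 28.6, 51.5 and 24.5 CPM (log2 FC -4.72, SE 1.12, adjusted p = 0.0392). Chow livers 1 and 2 were far above all others, and chow liver 3 was close to the saline livers. The same order of chow livers held for Orm1 and, among genes not called, for Orm2, Saa3 and Lcn2 (Orm1 (-1.22), Orm2 (-3.12), Saa3 (-3.37) and Lcn2 (-1.53)), at 198, 300.0 and 21.5 CPM in chow for Orm2. Other members did not turn on that liver: Itih3, an inter-alpha-trypsin inhibitor, was at 1723, 1849 and 1416 against 725, 643, 658 and 784 CPM (log2 FC -1.24, SE 0.12, adjusted p = 0.000169). The endotoxin-binding protein Lbp was at 199, 195 and 206 against 136, 92.8, 99.3 and 103 CPM (log2 FC -0.89, SE 0.12, adjusted p = 0.00127). Serpina3n, Hp, Hpx, Cp and Fgb fell (Serpina3n (-0.79), Hp (-0.78), Hpx (-0.71), Cp (-0.51) and Fgb (-0.36)), and Steap4, a metalloreductase, rose (1.63). Saa1, Saa2 and Orm1 kept their calls in 1, 1 and 1 of the 7 refits (adjusted p = 0.108 without chow liver 2, 0.102 without chow liver 2 and 0.0997 without chow liver 1). Hpx, Fgb and Steap4 kept their calls in 1, 1 and 1 of the 7 refits (adjusted p = 0.133 without chow liver 2, 0.175 without chow liver 1 and 0.141 without chow liver 2). Hp and Cp kept their calls in 6 and 6 of the 7 refits (adjusted p = 0.0575 without chow liver 1 and 0.0543 without chow liver 2). Among the 20 acute-phase genes, 1 rose and 8 fell with the DT livers in the fit, and 0 to 1 rose and 4 to 13 fell when 1 liver was left out.

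Complement and coagulation genes followed, with 11 of 23 lower (median -0.26). C3, the central complement protein, was at 14489, 14898 and 10161 CPM (chow 1 to 3) and 7613, 7848, 7978 and 8456 CPM (saline 1 to 4) (log2 FC -0.73, SE 0.14, adjusted p = 0.0061). C8b, C9, Hc (C5) and the lectin Mbl2 fell, and so did the coagulation and fibrinolysis genes F2 (-0.32), F9 (-0.24), F11 (-0.41), F12 (-0.34), Plg (-0.36) and Serpinc1 (-0.28) (C8b (-1.05), C9 (-0.82), Hc (-0.44) and Mbl2 (-0.69) for the complement genes). The falls of Hc and of the coagulation and fibrinolysis genes were small, with log2 FC from -0.44 to -0.24. Scaling by total counts left 5 of the 23 list members lower and 1 higher, with a median of -0.15. C4b and F5 were not called (C4b (-0.14) and F5 (0.04)). Of the iron genes Bmp6, Tfr2 and Tfrc fell and Slc40a1, ferroportin, rose (Bmp6 (-0.75), Tfr2 (-0.42), Tfrc (-0.89) and Slc40a1 (0.62)). The share of iron genes called was 26.7%, against 20.1% of all genes tested. Hamp, which encodes hepcidin, was at 314, 286 and 703 CPM (chow 1 to 3) and 555, 514, 202 and 448 CPM (saline 1 to 4) and was not called (log2 FC -0.02, SE 0.47, adjusted p = 0.986). Other secreted proteins with falls were Serpina1a, Fetub and Ahsg, and Serpina6, corticosteroid-binding globulin, rose (Serpina1a (-0.75), Fetub (-0.73), Ahsg (-0.38) and Serpina6 (1.16)). F2, F9 and F12 kept their calls in 2, 1 and 3 of the 7 refits (adjusted p = 0.0867 without chow liver 1, 0.122 without chow liver 2 and 0.076 without chow liver 2). Hc, Serpinc1 and Slc40a1 kept their calls in 3, 0 and 1 of the 7 refits (adjusted p = 0.102 without chow liver 2, 0.135 without chow liver 2 and 0.0724 without saline liver 1). F11, Plg and Tfrc kept their calls in 6, 5 and 6 of the 7 refits (adjusted p = 0.0584 without chow liver 2, 0.0747 without chow liver 1 and 0.0521 without chow liver 2). Ahsg and Serpina6 kept their calls in 2 and 2 of the 7 refits (adjusted p = 0.12 without chow liver 2 and 0.112 without chow liver 2). Among the 15 iron genes, 0 rose and 1 fell with the DT livers in the fit, and 0 to 1 rose and 2 to 4 fell when 1 liver was left out. Among the 8 other secreted protein genes, edgeR called 0 with the DT livers in the fit, where 3 had an unadjusted p below 0.05, and 0 to 1 rose and 2 to 4 fell when 1 liver was left out. Among the 23 complement and coagulation genes, 1 fell with the DT livers in the fit, and 4 to 9 fell when 1 liver was left out.

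Interferon-stimulated genes rose together: 17 of 26 were higher and 9 were not called (median 0.94). Type I interferons act through STAT and IRF factors on a response element in the promoters of such genes. The promoters of 4 that rose, all of which hold matches, are printed as examples of its spelling. Each line gives the 130 bases before the transcription start, 5′ to 3′ on the strand of the gene, from RefSeq on GRCm38.p6, and capitals mark every match to GAAANNGAA on either strand.
Ifit1, chr19:34640759-34640888, plus strand: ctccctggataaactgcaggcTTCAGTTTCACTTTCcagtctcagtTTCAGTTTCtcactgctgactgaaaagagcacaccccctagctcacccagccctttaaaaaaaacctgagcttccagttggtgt
Ifit3, chr19:34583399-34583528, plus strand: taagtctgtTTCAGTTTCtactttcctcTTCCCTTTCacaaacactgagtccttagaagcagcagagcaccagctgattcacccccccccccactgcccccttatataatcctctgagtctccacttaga
Isg15, chr4:156200819-156200948, minus strand: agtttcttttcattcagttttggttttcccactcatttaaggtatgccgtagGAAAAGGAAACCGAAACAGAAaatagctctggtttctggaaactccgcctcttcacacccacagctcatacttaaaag
Bst2, chr8:71537473-71537602, minus strand: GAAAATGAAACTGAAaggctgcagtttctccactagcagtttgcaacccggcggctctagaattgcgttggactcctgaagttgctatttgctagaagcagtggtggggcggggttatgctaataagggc
Overlapping matches run together in capitals, so Ifit1 and Isg15 hold 3 each and Ifit3 and Bst2 hold 2 each. Of the 26 genes 19 had a RefSeq promoter, and 11 of these (57.9%) held a match within 250 bases before the start, against 8.18% of all 27025 genes with a promoter. Among those 19, the match was in 10 of 16 called genes and in 1 of 3 not called, while the list had 9 members not called. Genes of this class carry the element in any liver, so these shares do not show that interferon acted here, which was not tested.

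In these 4 genes the livers were separated without overlap. Ifit1 and Ifit3 bind foreign RNA and restrain viral translation. Ifit1 was at 2.32, 2.62 and 3.14 against 8.73, 7.1, 6.81 and 10.6 CPM, and Ifit3 was at 3.55, 3.41 and 4.12 against 13.9, 8.89, 8.88 and 10.8 CPM. Isg15, a ubiquitin-like modifier, was at 1.77, 2.17 and 2.38 against 7.67, 4.2, 4.74 and 5.93 CPM. Bst2, tetherin, was at 57.7, 57.7 and 47.3 against 126, 104, 108 and 111 CPM. Their tests gave Ifit1 (1.62, adjusted p = 0.000624), Ifit3 (1.52, adjusted p = 0.000624), Isg15 (1.41, adjusted p = 0.00286) and Bst2 (1.05, adjusted p = 0.000187), and the copy Ifit3b rose alongside (1.73). Saline liver 1 was the highest of its group for Ifit3, Isg15 and Bst2, and saline liver 4 for Ifit1. The RNA sensors Ddx58 (RIG-I) and Ifih1 (MDA5), Irf7, and the guanylate-binding proteins Gbp2 and Gbp3 also rose (Ddx58 (0.77), Ifih1 (0.72), Irf7 (0.82), Gbp2 (1.03) and Gbp3 (1.30)). Ifi44, Ifit2, Oasl1, Oasl2, Oas1a and Rsad2 rose as well (Ifi44 (2.01), Ifit2 (1.18), Oasl1 (0.88), Oasl2 (0.97), Oas1a (0.93) and Rsad2 (0.45)). Samd9l, an interferon-inducible gene outside the list and among the smallest p of all genes, was at 4.79, 5.27 and 5.6 against 24.3, 22.2, 23.6 and 19.995 CPM (log2 FC 2.11, SE 0.11, adjusted p = 5.88e-06). Mx1, Mx2, Oas2, Usp18, Stat2 and Irf9 were not called (Mx1 (0.64), Mx2 (-0.27), Oas2 (0.00), Usp18 (0.98), Stat2 (-0.18) and Irf9 (0.29)). Oas1a, Rsad2 and Irf7 kept their calls in 4, 1 and 6 of the 7 refits (adjusted p = 0.109 without chow liver 1, 0.147 without chow liver 1 and 0.054 without chow liver 1). Oasl2 kept its call in 6 of the 7 refits (adjusted p = 0.0547 without chow liver 1). Among the 26 interferon-stimulated genes, 11 rose with the DT livers in the fit, and 13 to 18 rose when 1 liver was left out.

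MHC class II genes had the highest share of members called, 7 of 10 (median 1.19). H2-Ab1, a class II beta chain, was at 18.5, 19.96 and 24.4 CPM (chow 1 to 3) and 89, 51.3, 72.8 and 50.8 CPM (saline 1 to 4) (log2 FC 1.65, SE 0.23, adjusted p = 0.00323). H2-Aa was at 16.4, 19.9 and 21.2 against 77.2, 51.6, 69 and 46.3 CPM, and H2-Eb1 was at 13.6, 15.2 and 19.6 against 78, 48.5, 63 and 43.6 CPM. The invariant chain Cd74 was at 59.7, 61.8 and 71.5 against 197, 126, 167 and 112 CPM (H2-Aa (1.67, adjusted p = 0.00136), H2-Eb1 (1.85, adjusted p = 0.00224) and Cd74 (1.22, adjusted p = 0.00534)). Ciita, the transactivator of these genes, and the peptide loaders H2-DMa and H2-DMb1 rose too (Ciita (1.71), H2-DMa (1.10) and H2-DMb1 (1.15)). For these 7 genes every saline liver was above every chow liver, and saline livers 1 and 3 were the highest. H2-Oa, H2-Ob and H2-DMb2 were at low levels and were not called (H2-Oa (0.40), H2-Ob (0.50) and H2-DMb2 (-0.00)). In class I presentation 7 of 16 rose: the immunoproteasome subunits Psmb8, Psmb9 and Psmb10, the peptide transporters Tap1 and Tap2, the trimming peptidase Erap1, and H2-Q4 (Psmb8 (0.55), Psmb9 (1.02), Psmb10 (0.71), Tap1 (0.66), Tap2 (0.50), Erap1 (0.41) and H2-Q4 (0.43)). The heavy chains H2-K1 and H2-D1 and the light chain B2m were not called (H2-K1 (-0.07), H2-D1 (0.05) and B2m (0.11)). Class I and II genes resemble each other within their families, and reads may be shared. Tap2 and H2-Q4 kept their calls in 6 and 6 of the 7 refits (adjusted p = 0.0635 without chow liver 2 and 0.0511 without chow liver 2). Among the 16 class I genes, 2 rose with the DT livers in the fit, and 5 to 8 rose when 1 liver was left out. Among the 10 class II genes, 6 rose with the DT livers in the fit, and 7 rose when 1 liver was left out.

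Markers of resident Kupffer cells were mostly not called. Of 12, Cd163, a haemoglobin scavenger receptor, fell, at 36, 47.8 and 50.8 CPM (chow 1 to 3) and 9.96, 18.6, 11.6 and 17.2 CPM (saline 1 to 4) (log2 FC -1.64, SE 0.24, adjusted p = 0.00404), and Il18bp rose (log2 FC 0.54, SE 0.15, adjusted p = 0.0321). Clec4f, Vsig4, Timd4, Marco and Cd5l were not called (Clec4f (0.04), Vsig4 (-0.05), Timd4 (-0.15), Marco (0.47) and Cd5l (0.52)). The summed level of the list ran from 368 to 448 CPM in chow and from 385 to 503 CPM in saline livers. Among monocyte and general macrophage genes 5 of 17 rose and 1 fell. Ccr2, the chemokine receptor of recruited monocytes, was at 0.279, 0.663 and 0.795 against 2.96, 1.38, 3.14 and 1.94 CPM (log2 FC 2.01, SE 0.40, adjusted p = 0.00774). Cx3cr1 rose from 24 counts over the chow livers to 274, a ratio of 7.56 (4.97 to 12, counting error only), and Plac8, Fcgr1 and Cd86 rose while Mertk fell (Plac8 (1.04), Fcgr1 (0.76), Cd86 (0.68) and Mertk (-0.27)). Csf1r, Adgre1, C1qa and Lyz2, expressed across macrophages, were not called (Csf1r (0.02), Adgre1 (0.36), C1qa (0.11) and Lyz2 (0.33)). Il18bp, Cd86 and Fcgr1 kept their calls in 2, 1 and 5 of the 7 refits (adjusted p = 0.0798 without chow liver 3, 0.165 without chow liver 2 and 0.0786 without chow liver 1). Mertk kept its call in 5 of the 7 refits (adjusted p = 0.0957 without chow liver 2). Among the 12 Kupffer cell markers, edgeR called 0 with the DT livers in the fit, where 3 had an unadjusted p below 0.05, and 0 to 2 rose and 1 fell when 1 liver was left out. Among the 17 macrophage genes, 1 rose and 0 fell with the DT livers in the fit, and 3 to 5 rose and 0 to 1 fell when 1 liver was left out.

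Markers of lipid-associated macrophages all had a positive log2 FC, 15 of 15 (median 0.75), but 3 were called: the lysosomal lipase Lipa, Lpl and the adaptor Tyrobp (Lipa (0.51), Lpl (2.00) and Tyrobp (0.54)). Of all genes tested 51.1% had a positive log2 FC. The share of the list called (20%) was near that of all genes tested (20.1%). Trem2, the defining receptor of these cells, was at 0.836, 1.18 and 0.795 CPM (chow 1 to 3) and 1.74, 0.781, 3.1 and 0.661 CPM (saline 1 to 4) (log2 FC 0.75, SE 0.53, adjusted p = 0.361). Gpnmb was at 0.418, 0.848 and 0.836 against 7.17, 2.32, 25.7 and 0.816 CPM (log2 FC 3.67, SE 1.40, adjusted p = 0.132). Saline liver 3 was the highest for both. For Trem2 saline livers 2 and 4 were under every chow liver, and for Gpnmb saline liver 4 lay within the chow range. Mmp12, Itgax, Cd63 and Spp1 were not called either, with saline liver 3 highest (Mmp12 (4.54), Itgax (1.68), Cd63 (1.37) and Spp1 (0.59)). The summed level of the list ran from 366 to 444 CPM in chow and from 534 to 681 CPM in saline livers. Tyrobp kept its call in 6 of the 7 refits (adjusted p = 0.0513 without chow liver 3). DESeq2 called 10 of the 15 genes of this list higher. In edgeR 10 had an unadjusted p below 0.05, all of them higher. Among the 15 genes of this list, 2 rose with the DT livers in the fit, and 3 to 8 rose when 1 liver was left out. The 8 came from the refit without saline liver 4.

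Lymphoid, dendritic and granulocyte markers were low and few were called. Of 18 T and NK cell genes Cd4 rose, at 0.883, 0.958 and 1.25 against 3.36, 1.71, 2.24 and 2.64 CPM (log2 FC 1.27, SE 0.27, adjusted p = 0.0102), and Trac, Cd3e, Cd8a and Nkg7 were not called (Trac (1.12), Cd3e (0.10), Cd8a (0.36) and Nkg7 (0.05)). Cd4 is also carried by some myeloid cells. None of 10 B and plasma cell genes was called by edgeR or DESeq2, and 1 had an unadjusted p below 0.05. Ighm, the IgM heavy chain, was at 5.02, 8.51 and 3.24 against 6.28, 8.57, 50.2 and 4.78 CPM, with saline liver 3 above all others (Ighm (1.64)). Of 11 dendritic cell genes Siglech, of plasmacytoid cells, and Flt3 rose (Siglech (1.98, adjusted p = 0.00804) and Flt3 (1.43, adjusted p = 0.0285)), and Xcr1 and Clec9a, of the conventional type 1 cells, were not called (Xcr1 (1.48) and Clec9a (-0.46)). The share of dendritic cell genes called (18.2%) was near that of all genes tested (20.1%). Of 13 neutrophil genes 4 passed the filter on low counts, S100a8 and S100a9 among them (S100a8 (0.29) and S100a9 (0.85)), and none was called by edgeR or DESeq2 or had an unadjusted p below 0.05. Flt3 kept its call in 2 of the 7 refits (adjusted p = 0.1 without chow liver 1). Among the 18 T and NK cell genes, edgeR called 0 with the DT livers in the fit, where 3 had an unadjusted p below 0.05, and 1 to 3 rose and 0 to 1 fell when 1 liver was left out. Among the 11 dendritic cell genes, 1 rose with the DT livers in the fit, and 1 to 3 rose when 1 liver was left out.

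Among 19 chemokines and receptors 5 rose and 2 fell (median 0.78). Cxcl2, which attracts neutrophils, had 0 counts in all chow livers and 104 over the saline livers, at least 22.9-fold higher against a floor of 3 counts over the chow group. Ccl2, the ligand of Ccr2, had 12 and 189 counts, a ratio of 10.4 (5.83 to 20.5), and Ccl22 had 4 and 110, a ratio of 18.2 (6.91 to 68). These intervals cover counting error only, and saline liver 3 was the highest for all 3 genes. Cxcl10 rose, at 0.743, 1.22 and 1.05 against 2.79, 3.64, 3.57 and 2.64 CPM, and Cxcl1 rose, at 0.976, 0.405 and 1.97 against 5.21, 7.73, 8.09 and 3.13 CPM (Cxcl10 (1.65, adjusted p = 0.00149) and Cxcl1 (2.45, adjusted p = 0.0225)). Cxcl13, which attracts B cells, was at 7.67, 3.24 and 3.35 against 0.592, 0.818, 0.868 and 0.311 CPM (log2 FC -2.86, SE 0.41, adjusted p = 0.00219), and Ccl9 fell (-0.53). Of 22 genes of endotoxin sensing and the inflammasome, the receptors Tlr4, Tlr2 and Tlr9 and the cytokine Il1a rose and Lbp fell (Tlr4 (1.36), Tlr2 (0.94), Tlr9 (1.38) and Il1a (0.91) for the rises). The share of these 22 that was called (22.7%) was near that of all genes tested (20.1%). Tnf, Il1b, Nlrp3 and Cd14 were not called (Tnf (1.94), Il1b (1.09), Nlrp3 (0.58) and Cd14 (-0.32)). Ccl22, Cxcl1 and Tlr2 kept their calls in 2, 5 and 2 of the 7 refits (adjusted p = 0.0579 without chow liver 2, 0.0881 without chow liver 1 and 0.124 without chow liver 2). Tlr9 and Il1a kept their calls in 4 and 1 of the 7 refits (adjusted p = 0.0958 without chow liver 1 and 0.13 without chow liver 2). Among the 22 endotoxin and inflammasome genes, 0 rose and 1 fell with the DT livers in the fit, and 1 to 4 rose and 1 fell when 1 liver was left out. Among the 19 chemokine genes, 4 rose and 1 fell with the DT livers in the fit, and 3 to 5 rose and 2 to 3 fell when 1 liver was left out.

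**Figure D4:**
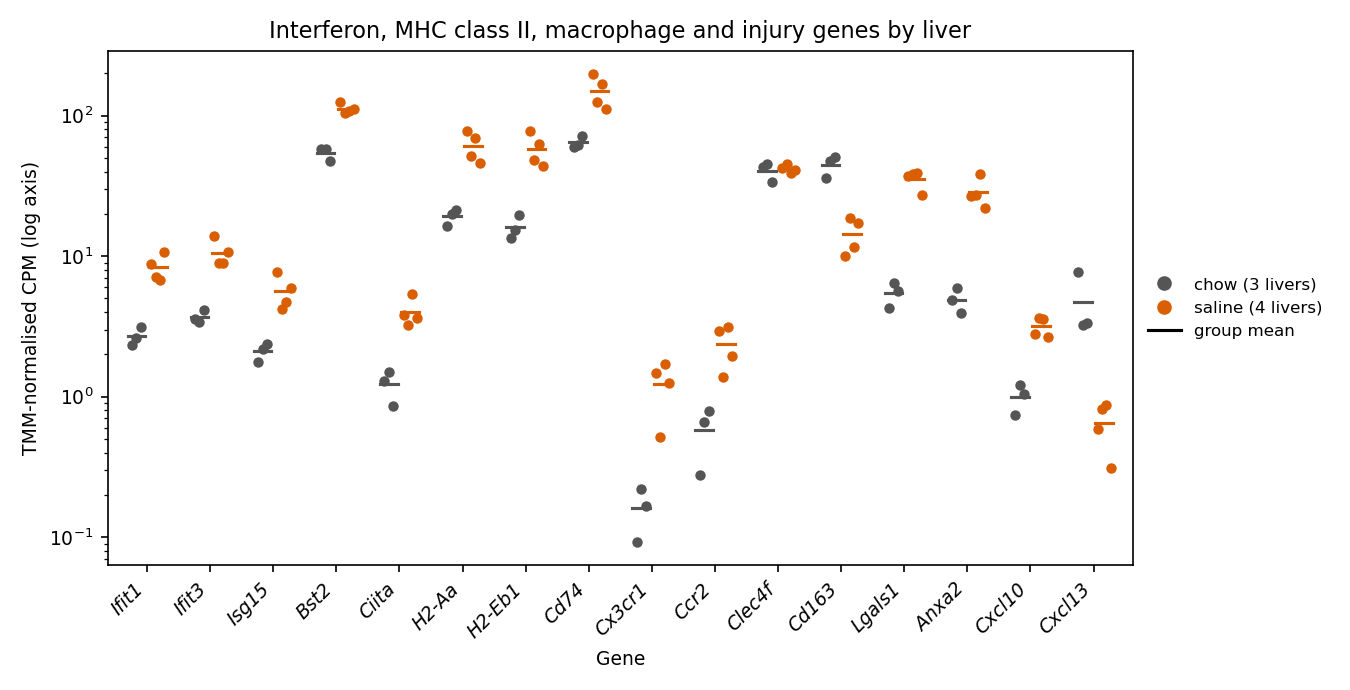
CPM on a log axis of interferon, antigen presentation, macrophage, galectin, annexin and chemokine genes, with 1 point for each chow (3) and saline (4) liver, in replicate order, and a bar at each group's mean; levels compare only within a gene. Saline livers lie above chow livers for all of them except Clec4f, where the groups overlap, and Cd163 and Cxcl13, where they lie below.

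Stellate cell and matrix genes were higher in 10 of 24 cases (median 0.65). Col1a1, a chain of type I collagen, was at 2.93, 4.24 and 3.43 CPM (chow 1 to 3) and 6.21, 5.09, 13.6 and 7.15 CPM (saline 1 to 4) (log2 FC 1.18, SE 0.34, adjusted p = 0.0468). Saline liver 3 was the highest. Acta2, smooth muscle actin of activated stellate cells, was at 0.465, 0.295 and 0.125 against 0.555, 0.706, 1.4 and 0.777 CPM (log2 FC 1.55, SE 0.49, adjusted p = 0.0471). Col14a1, Col6a3, Loxl1, Tgfb1, Thbs1, Vim and Lrat rose (Col14a1 (1.04), Col6a3 (0.82), Loxl1 (1.30), Tgfb1 (0.53), Thbs1 (2.16), Vim (0.65) and Lrat (0.93)), and Mmp13 had 4 counts over the chow and 112 over the saline livers, a ratio of 18.5 (7.04 to 69.2). Col3a1, Col1a2, Pdgfrb and Des were not called (Col3a1 (1.64), Col1a2 (1.09), Pdgfrb (0.57) and Des (0.34)). None of 16 sinusoidal endothelial genes was called by edgeR, 1 was by DESeq2, and 5 had an unadjusted p below 0.05. Stab2, Clec4g and Lyve1 had log2 FC of 0.03, -0.04 and 0.64. Of 8 cholangiocyte genes Sox9, a factor of biliary and progenitor cells, fell, at 14.2, 6.38 and 8.57 against 3.11, 2.49, 3.47 and 2.1 CPM (log2 FC -1.79, SE 0.28, adjusted p = 0.00319), and Krt19, Krt7 and Epcam were not called (Krt19 (-0.44), Krt7 (0.84) and Epcam (-0.06)). Col1a1, Acta2 and Col14a1 kept their calls in 2, 1 and 3 of the 7 refits (adjusted p = 0.147 without chow liver 1, 0.126 without chow liver 2 and 0.0866 without chow liver 1). Col6a3, Loxl1 and Tgfb1 kept their calls in 1, 2 and 2 of the 7 refits (adjusted p = 0.165 without chow liver 1, 0.0816 without chow liver 3 and 0.0891 without chow liver 3). Thbs1, Mmp13 and Vim kept their calls in 2, 2 and 6 of the 7 refits (adjusted p = 0.117 without chow liver 1, 0.135 without chow liver 2 and 0.0557 without chow liver 1). Among the 8 cholangiocyte genes, edgeR called 0 with the DT livers in the fit, where 1 had an unadjusted p below 0.05, and 1 to 2 fell when 1 liver was left out. Among the 24 matrix genes, 1 rose and 0 fell with the DT livers in the fit, and 2 to 10 rose and 0 to 1 fell when 1 liver was left out.

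Annexins and galectins included some of the clearest rises among structural genes. Lgals1, galectin-1, was at 4.27, 6.47 and 5.65 CPM (chow 1 to 3) and 37.2, 38.4, 39 and 27.4 CPM (saline 1 to 4) (log2 FC 2.70, SE 0.17, adjusted p = 4.1e-05). Anxa2, annexin A2, was at 4.88, 5.9 and 3.95 against 26.7, 27.4, 38.7 and 22.1 CPM (log2 FC 2.55, SE 0.22, adjusted p = 0.000286). Anxa1, Anxa5 and S100a11 rose, which makes 5 of 9 (median 1.00) (Anxa1 (1.20), Anxa5 (0.95) and S100a11 (1.62)). Of 18 cell cycle genes 6 rose, namely the replication licensing genes Mcm2, Mcm3 and Mcm5, Tyms, Top2a and the cyclin Ccnd1 (Mcm2 (1.44), Mcm3 (0.60), Mcm5 (1.12), Tyms (0.60), Top2a (1.18) and Ccnd1 (1.27)). Mki67, Cdk1 and Ccna2 were not called (Mki67 (0.88), Cdk1 (0.13) and Ccna2 (1.02)). Cdkn1a, the cell cycle inhibitor p21, was at 19.7, 28.2 and 78.6 CPM (chow 1 to 3) and 1.61, 1.84, 8.89 and 1.54 CPM (saline 1 to 4) (log2 FC -3.59, SE 0.90, adjusted p = 0.0463), with chow liver 3 the highest of all. Of 15 p53 targets Gadd45a, the stress hormone Gdf15 and Ccng1 rose and Cdkn1a, Gadd45b, Bbc3 and Sesn1 fell (Gadd45a (2.63), Gdf15 (2.56), Ccng1 (0.46), Gadd45b (-2.21), Bbc3 (-1.04) and Sesn1 (-0.34)). The immediate-early genes Fos and Atf3 rose, and Jun, Egr1 and Hspa1a were not called (Fos (2.92), Atf3 (2.35), Jun (1.63), Egr1 (0.90) and Hspa1a (1.56)). The share called of the 10 immediate-early and heat-shock genes (20%) was near that of all genes tested (20.1%). Ly6d, an injury marker, rose, and Afp was not called (Ly6d (2.11) and Afp (1.13)). Mcm3, Tyms and Top2a kept their calls in 3, 1 and 2 of the 7 refits (adjusted p = 0.082 without chow liver 3, 0.105 without chow liver 3 and 0.134 without chow liver 2). Cdkn1a, Gdf15 and Ccng1 kept their calls in 1, 3 and 2 of the 7 refits (adjusted p = 0.112 without chow liver 3, 0.113 without chow liver 2 and 0.146 without chow liver 1). Sesn1, Ly6d and Mcm5 kept their calls in 1, 2 and 6 of the 7 refits (adjusted p = 0.157 without chow liver 2, 0.147 without chow liver 1 and 0.0664 without chow liver 2). Ccnd1 and Bbc3 kept their calls in 5 and 5 of the 7 refits (adjusted p = 0.0882 without chow liver 3 and 0.0902 without chow liver 1). Among the 9 annexin, S100 and galectin genes, 3 rose with the DT livers in the fit, and 5 rose when 1 liver was left out. Among the 15 p53 targets, 2 rose and 3 fell with the DT livers in the fit, and 1 to 2 rose and 1 to 4 fell when 1 liver was left out. Among the 10 immediate-early and heat-shock genes, 2 rose with the DT livers in the fit, and 2 to 4 rose when 1 liver was left out. Among the 18 cell cycle genes, edgeR called 0 with the DT livers in the fit, where 6 had an unadjusted p below 0.05, and 2 to 5 rose when 1 liver was left out.

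Clock genes and several of their outputs differed, and the chow livers differed among themselves. Dbp, a clock output factor, was at 8.46, 6.98 and 33.1 CPM (chow 1 to 3) and 119.7, 133, 127 and 152 CPM (saline 1 to 4) (log2 FC 3.04, SE 0.65, adjusted p = 0.0283). Arntl, which encodes BMAL1, was at 22, 19.2 and 7.3 against 6.04, 2.94, 2.22 and 1.81 CPM (log2 FC -2.31, SE 0.55, adjusted p = 0.0333). For both, chow liver 3 was the nearest to the saline livers. Nr1d2, Per2, Per3 and Bhlhe41 rose and Cry1 and Nfil3 fell (Nr1d2 (0.99), Per2 (1.67), Per3 (1.42), Bhlhe41 (2.54), Cry1 (-0.89) and Nfil3 (-1.46)), so that 5 of 17 rose and 3 fell. Ciart was at 0.859, 2.52 and 39.8 against 6.06, 6.34, 12.6 and 11.9 CPM and was not called (log2 FC -0.64, SE 1.24, adjusted p = 0.762). Without chow liver 3 its log2 FC was 2.42, with an adjusted p of 0.0406. Per1, Clock and Cry2 were not called (Per1 (-0.19), Clock (-0.11) and Cry2 (0.02)). The labels give no hour of harvest, so time of day and diet cannot be told apart. A D-box spelled TTATGNAA was within 250 bases before the start of 2 of 15 clock genes with a RefSeq promoter, Per1 and Per3 (3.63% of all genes), and an E-box spelled CACGTG before that of 5, Per1, Cry1, Tef, Bhlhe41 and Ciart (6.86%), both searched on either strand. Dbp, Arntl and Per2 kept their calls in 1, 2 and 2 of the 7 refits (adjusted p = 0.0778 without chow liver 1, 0.0908 without chow liver 2 and 0.107 without chow liver 2). Among the 17 clock genes, 4 rose and 3 fell with the DT livers in the fit, and 3 to 9 rose and 2 to 3 fell when 1 liver was left out.

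**Figure D5:**
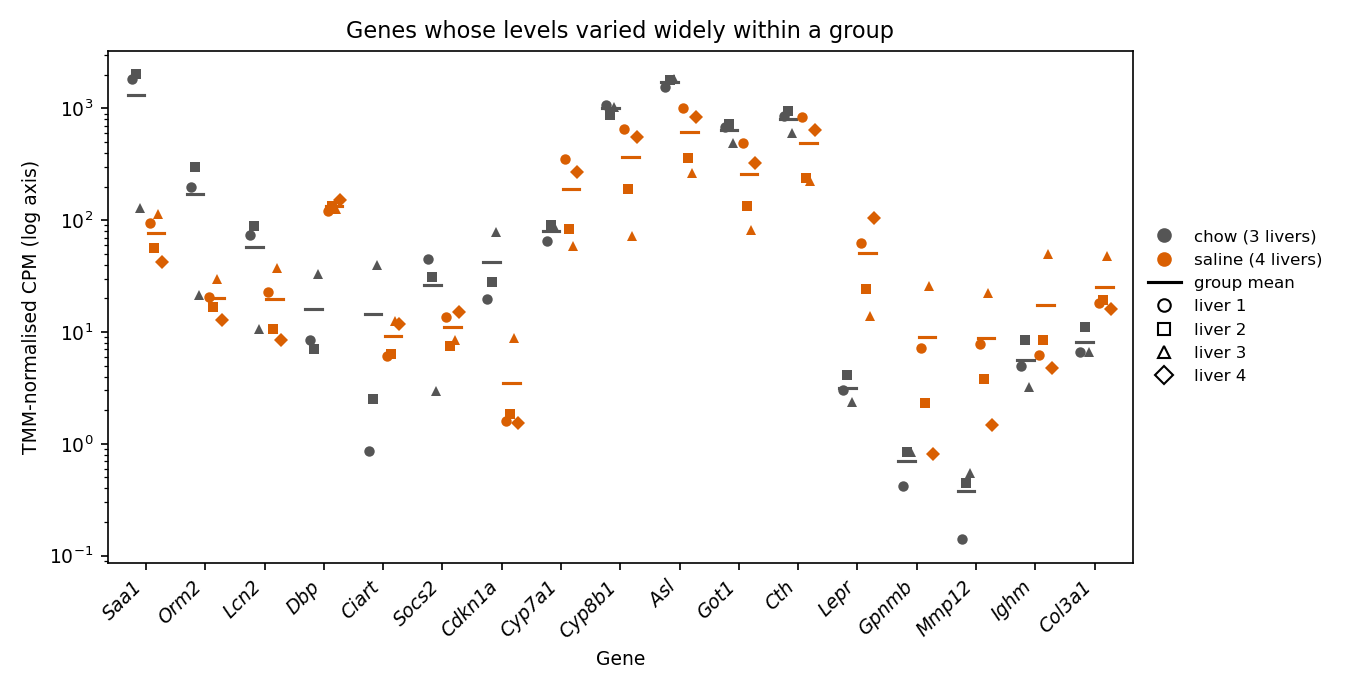
CPM on a log axis, by liver, of genes whose level differed widely within a group, chosen after their values were seen; for each gene grey points are chow livers and orange points saline livers, the shape of a point gives the replicate number and a bar the group's mean. Saa1 is lowest of the chow livers in liver 3, Ciart is highest there, and Cyp7a1 is higher in saline livers 1 and 4 than in 2 and 3.

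Several of the largest and most precise changes lay outside these groups. Serpina7, thyroxine-binding globulin, was at 1.39, 2.36 and 1.67 CPM (chow 1 to 3) and 14.3, 20.3, 60.6 and 13.6 CPM (saline 1 to 4) (log2 FC 3.90, SE 0.76, adjusted p = 0.0213), with saline liver 3 the highest. Car3, a carbonic anhydrase, was at 232, 331 and 467 against 2216, 4077, 3386 and 2736 CPM (log2 FC 3.18, SE 0.31, adjusted p = 0.00091). Osbpl3, an oxysterol-binding protein relative, was at 1.77, 1.7 and 2.38 against 18.4, 15.7, 24.2 and 15.3 CPM (log2 FC 3.24, SE 0.21, adjusted p = 2.99e-05). Neither overlapped between groups. Ntrk2, a neurotrophin receptor, rose, at 3.67, 3.63 and 0.46 against 22.4, 27, 24.2 and 33.7 CPM. Adam11, a disintegrin family member, rose, at 13.6, 13.2 and 9.49 against 78.3, 79.4, 70.1 and 87.9 CPM (Ntrk2 (3.37, adjusted p = 0.0174) and Adam11 (2.71, adjusted p = 5.88e-06)). Hsd3b3, a hydroxysteroid dehydrogenase, was at 77.1, 89.1 and 79.5 against 240.5, 276, 253 and 299 CPM (log2 FC 1.71, SE 0.10, adjusted p = 1.22e-05), and the predicted gene Gm6951 had 13 counts over the chow and 805 over the saline livers. Slco2a1, a prostaglandin carrier, was at 107, 128 and 107 against 40.4, 37.6, 34.7 and 40.1 CPM (log2 FC -1.57, SE 0.09, adjusted p = 1.16e-05). Fkbp5, a co-chaperone induced by glucocorticoids, was at 99.3, 102 and 296 against 28, 19.3, 29.7 and 21.1 CPM (log2 FC -2.76, SE 0.46, adjusted p = 0.0122). Peg3, an imprinted zinc finger gene, was at 20.7, 16.1 and 12.6 against 2.37, 3.12, 2.15 and 3.85 CPM (log2 FC -2.52, SE 0.23, adjusted p = 0.000231). Chow liver 3 was the highest for Fkbp5. Cfd, which encodes adipsin of fat cells, had 16 counts in chow liver 3, 0 in chow livers 1 and 2 and 5794 over the saline livers, at 55.6, 8.25, 13.7 and 29.5 CPM, a ratio of 239.7 (147 to 419.6, counting error only). Adipoq and Plin1, which define fat cells, had 9 and 6 counts over the chow and 6 each over the saline livers, under the filter. Serpina7 and Cfd kept their calls in 4 and 4 of the 7 refits (adjusted p = 0.08 without chow liver 1 and 0.0726 without chow liver 3).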

How the data were processed

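RNA was measured by sequencing in whole liver, 3 chow and 4 saline libraries of 11. The submitters' processing notes name FastQC, the aligner STAR, the build GRCm39 and the counter featureCounts. Versions, annotation release, strand setting and treatment of mates are not given in the sources used here. The deposited values are the authors' raw counts per Ensembl gene for 55414 genes, of which 26095 had any count in the 7 libraries. Genes kept by edgeR's filterByExpr (15435) were scaled with TMM and fitted in R 4.3.3 with edgeR 4.0.16, using its quasi-likelihood test with robust estimates and 1 mean per group. The fit left 5 residual degrees of freedom, and the common biological coefficient of variation was 18.0%. Tests were two-sided with Benjamini-Hochberg adjustment over all 15435 genes at 0.05. SE is the log2 FC divided by the square root of its F statistic.

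Symbols are those given with the deposited counts. Biotypes and overlaps between strands come from GENCODE M21 (GRCm38), matched by Ensembl identifier. Promoters come from RefSeq on GRCm38.p6, matched by symbol, and no coordinate of another build was converted. By GENCODE M21, 90 of the 400 genes examined by name overlap an exon of a gene on the other strand. Without a stated strand setting the reads of such pairs cannot be told apart.

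The members of the comparison and the 49 lists were chosen with earlier results of these data known, and no list was tested as a set. Named genes are the 12 largest rises and 12 largest falls among called genes (mean log2 CPM at least 2, an established symbol, no overlap between groups), the 10 with the smallest p, 35 fixed genes, and of each list up to 4 members with the smallest p, all members where 5 or fewer went 1 way, and defining members not called. Some further list members are named, chosen after their values were seen. Counts and medians of lists cover all tested members, some of which are not reported here by name. The fit was tested on simulated counts of 15156 genes, of which 100 were changed 2-fold and 100 were changed 4-fold. It recovered 77% of 2-fold and 97% of 4-fold changes and made 17 false calls. The counts were drawn with the spread that the same fit had estimated, and no gene of low level was changed. The simulation therefore does not show how the fit performs on low counts or with single outlying livers. Replicate numbers did not pair the samples (correlation of same-numbered deviations 0.07, -0.05 and 0.03), and no library was a copy of another. Alternatives were other scaling factors, DESeq2 1.42.0, limma-voom (limma 3.58.1), other filters, halved counts, a non-robust fit, a minimum log2 fold change of 1, the replicate number as a block, the DT livers in the fit, and each liver left out.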

Additional observations from a re-analysis of the deposited data

Results flagged for a closer look

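Among the 400 genes examined by name, 26 (6.5%) had 1 saline liver far from the other 3, with a gap to the nearest beyond the 95% critical value of the Dixon test for 4 samples. Chance flags about 1 gene in 20 in this way, and the chow group of 3 was not examined. Liver 3 was the outlying one for 12 genes, liver 4 for 8, liver 1 for 4 and liver 2 for 2. Saline liver 3 stood above the other 3 for Cdkn1a (8.89 CPM, others 1.54 to 1.84), Col3a1 (47.9 CPM, others 16.2 to 19.2), Egr1 (21.5 CPM, others 11.7 to 12.6), Fdps (1.7 CPM, others 0.444 to 0.583), Ighm (50.2 CPM, others 4.78 to 8.57), Serpina7 (60.6 CPM, others 13.6 to 20.3), Spp1 (35.2 CPM, others 14.9 to 16.6) and Steap4 (148 CPM, others 67.7 to 78.6). Saline liver 3 stood below the other 3 for Cd86 (3.05 CPM, others 3.53 to 3.59), Cry2 (28.9 CPM, others 38.2 to 39.3), G6pc (90.4 CPM, others 199 to 221) and Scd4 (4.49 CPM, others 5.71 to 5.92). Saline liver 4 stood above the other 3 for Igf1 (683 CPM, others 499 to 528), Mup1 (108 CPM, others 18.4 to 28.8), Mup11 (193 CPM, others 78.1 to 91.6), Mup12 (53 CPM, others 11.3 to 15.6), Mup7 (1250.4 CPM, others 309 to 439) and Onecut1 (42.4 CPM, others 10.4 to 15.2). Saline liver 4 stood below the other 3 for Adgre1 (22.7 CPM, others 29.1 to 29.8) and Lgals1 (27.4 CPM, others 37.2 to 39). Saline liver 1 stood above the other 3 for Cd3e (1.04 CPM, others 0.738 to 0.768), H2-K1 (1379 CPM, others 1125 to 1165), Hmox1 (57.3 CPM, others 29.5 to 31.9) and Sult1a1 (292 CPM, others 235 to 237). Saline liver 2 stood above the other 3 for Ephx1 (426 CPM, others 355 to 365) and Lgr5 (10.8 CPM, others 5.71 to 6.24). Among these genes are 4 major urinary proteins (Mup1, Mup7, Mup11 and Mup12), which share reads and so are not independent.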

How the results depend on the processing

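Of 3105 genes, 1328 (42.8%) were called in every refit that left out 1 liver. The count of called genes ran from 1646 without chow liver 1 and 1809 without chow liver 2 to 2939 without saline liver 4. With the DT livers in the fit it was 950, of which 488 differed by at least 1 log2 unit, and with a test against a minimum log2 fold change of 1 it was 102, all of them changed by at least that much. Total count scaling called 3488 genes and moved the median log2 FC from 0.01 to 0.12. The cause of these shifts was not tested, except that the last test asks for more change by construction. The other settings kept the count within 1.5 times of 3105: 3113 with RLE and 3120 with upper quartile factors, 3872 with DESeq2, 3015 with limma-voom, 3043 without a filter, 3071 with a filter of 1 CPM in 3 libraries, 3174 with halved counts and 3119 with a non-robust fit. With the replicate block it was 2564, of which 2222 were among the 3105. Ciart, at a log2 FC of -0.64, ran from -1.20 without chow liver 1 to 2.42 without chow liver 3.

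Of 278 called genes of the lists and the naming rule, 168 kept their call without any 1 liver, 127 with the DT livers in the fit, 277 by DESeq2, 265 by limma-voom and 257 under total count scaling. A count of 3 corresponds to 0.050 to 0.0697 CPM, so differences under that level were not detectable, and 3 against 4 livers limit the precision of every value.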

Other observations

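Of 14 nuclear genes of oxidative phosphorylation 1 was called. Ndufv1, a subunit of respiratory complex I, fell, at 145, 152 and 146 CPM (chow 1 to 3) and 124, 126, 120.3 and 126 CPM (saline 1 to 4) (log2 FC -0.25, SE 0.07, adjusted p = 0.0246). Uqcrc1, Cycs, Cox4i1, Ndufa4 and Atp5b had log2 FC between -0.27 and -0.19 and were not called, and Sdha had 0.15. None of 9 mitochondrially encoded genes was called by edgeR or DESeq2, and none had an unadjusted p below 0.05. mt-Co1, a core subunit of complex IV, was at 20388, 23071 and 24299.6 against 21372, 24492, 20980.0 and 22476 CPM, and the log2 FC of the 9 ran from -0.22 for mt-Cytb to 0.24 for mt-Co2. Ndufv1 kept its call in 5 of the 7 refits (adjusted p = 0.103 without chow liver 2). Of the 14 nuclear genes DESeq2 called 5 lower, and total count scaling gave 1 higher and 0 lower. With the DT livers in the fit edgeR called 0 of them.

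Erythroid transcripts gave values in both directions. Alas2, the erythroid enzyme of haem synthesis, rose, at 73.9, 78.9 and 66.1 against 84.9, 94.6, 103 and 96.6 CPM (log2 FC 0.38, SE 0.09, adjusted p = 0.0169), while the haemoglobin chain Hbb-bs was at 62.4, 92.4 and 51.3 against 39.4, 42.5, 53.5 and 70.1 CPM and was not called (log2 FC -0.42, SE 0.27, adjusted p = 0.315), nor was Hba-a1 (-0.32). Alas2 kept its call in 5 of the 7 refits (adjusted p = 0.0582 without chow liver 1).

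By the biotypes of GENCODE M21, 1587 of 13108 protein coding genes rose and 1268 fell (21.8% called). Of 363 long intergenic RNAs 22 rose and 48 fell, and of 435 antisense RNAs 18 rose and 36 fell. Processed pseudogenes were called in 1.79% of 727 cases, 7 higher and 6 lower. These groups differ in level, and the part of level in the shares was not tested.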
